A study of Mus musculus with 8 samples.

Results

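MP cells were compared with TN cells among CD8+ T cells labelled WT, in 4 of the 8 small RNA libraries of the series. The 4 libraries are WT TN replicates 1 and 2 and WT MP replicates 1 and 2, and they were taken by their titles. The other 4 libraries are TN and MP cells labelled mCre, 2 of each; they entered the same fit, and their values are set beside those of WT where a comparison between the genotypes needs them. All cells came from mouse spleen and were sorted, per the labels' protocols, with antibodies to CD8, CD4, CD44 and CD122. The design text of the series uses VM where the titles use MP. Neither abbreviation is spelled out in the labels; in work on CD8+ T cells they commonly mean true naive (TN) and virtual memory (VM). The series title names these samples only by a tag of miR-29 and Cre, a DNA recombinase, and the labels name neither what Cre deletes nor the promoter that drives it. The labels give no age for single libraries (the protocol covers adult and neonatal spleens together), no strain or sex, and no alleles of the WT mice, nor whether replicate libraries are from separate animals. The p-values of the main fit therefore only set each difference against a spread estimated from all 8 libraries, mCre included. That spread may be technical.

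A miRNA is a short RNA cut from a hairpin precursor, and either arm of the hairpin (5p or 3p) can be loaded into Argonaute. It represses transcripts that pair with its seed, the stretch near its 5′ end. CD8+ T cells with high CD44 and CD122 respond to IL-15 and other cytokines faster than naive cells. Several miRNAs are known to differ between resting and activated T cells: miR-155, miR-146a and miR-21 are induced by antigen receptor and cytokine signals, whereas miR-181a is high in thymocytes and declines as T cells mature.

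The sequences of the miRNAs that the comparison turned on are shown first, since members of a seed group share predicted targets. They are RefSeq mature sequences (GRCm38.p6), written 5′ to 3′ with the seed, bases 2 to 8, in capitals. RefSeq sequences matched 308 of the 382 miRNAs tested. miR-598-3p and miR-150-5p had no entry and are only named. The first lines are miRNAs whose MP libraries lay above their TN libraries.
miR-146a-5p: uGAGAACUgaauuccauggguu
miR-21a-5p: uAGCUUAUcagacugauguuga
miR-155-5p: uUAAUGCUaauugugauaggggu
miR-374b-5p: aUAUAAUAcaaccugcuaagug
miR-30a-3p: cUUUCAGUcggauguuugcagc
miR-29a-3p: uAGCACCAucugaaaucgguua
The next lines are miRNAs with MP below TN, beside members that share their seed and overlapped between the subsets (miR-125b-5p, let-7a-5p and let-7b-5p). The pair miR-211-5p and miR-204-5p differ at 1 of 22 positions. miR-351-5p, encoded on the X chromosome, has the same seed as miR-125a-5p and miR-125b-5p. let-7c-5p and let-7e-5p each differ from let-7a-5p at 1 of 22 positions and let-7b-5p at 2, so reads of these members are hard to assign and their single values are uncertain to that extent.
miR-181a-5p: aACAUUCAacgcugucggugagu
miR-181b-5p: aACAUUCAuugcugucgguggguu
miR-211-5p: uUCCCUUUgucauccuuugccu
miR-204-5p: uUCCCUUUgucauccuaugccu
miR-351-5p: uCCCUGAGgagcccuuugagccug
miR-125a-5p: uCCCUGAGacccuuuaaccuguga
miR-125b-5p: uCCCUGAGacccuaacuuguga
let-7a-5p: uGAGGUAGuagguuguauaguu
let-7b-5p: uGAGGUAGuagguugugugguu
let-7c-5p: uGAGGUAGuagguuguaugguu
let-7e-5p: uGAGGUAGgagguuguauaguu

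The 4 libraries held 3024878 and 1936597 counts in TN and 3295379 and 3920356 in MP. A count of 0 allows up to 3 counts, or 0.765 to 1.55 counts per 1000000 (CPM) without further scaling. Both MP libraries were deeper than both TN libraries. miR-150-5p, a defining miRNA of mature lymphocytes that falls when T cells are activated, was present in all 4. It was at 49905 and 46047 CPM in TN and 83153 and 104681 CPM in MP. These CPM are after scaling by trimmed mean of M values (TMM), as are all CPM below unless said otherwise. miR-142a-3p, found throughout blood cells, was at 2659 and 939.8 CPM in TN and 1948 and 1599 CPM in MP.

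The TN libraries differed from each other far more than the MP libraries did. Of 382 miRNAs, 227 were over 2-fold apart between the TN libraries and 63 between the MP libraries; 107 and 9 were over 4-fold apart. The SD of the log2 ratio of replicate 2 to replicate 1 was 1.86 in TN and 0.76 in MP. Neither pair agreed within counting noise, with a chi-square per degree of freedom of 1638 in TN and 260.1 in MP, so each library was kept as a sample.

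Replicate 2 of TN also stood apart in the miRNA of the series title, in the direction opposite to its genotype label if Cre acts on miR-29, which the labels do not state. The miR-29 family took 0.355% of counts in TN replicate 1 and 0.369% and 1.14% in MP. It took only 0.0774% in TN replicate 2 (95% Wilson interval 0.0736% to 0.0814%). That interval overlapped the interval of mCre MP replicate 1 (0.0787%, 0.0751% to 0.0826%). The shares of mCre MP replicate 2 (0.133%) and mCre TN replicate 1 (0.170%) were higher. The library labelled mCre TN replicate 2 held 1.59%, the highest of the 8. Replicate 2 of TN is therefore called the library labelled WT TN replicate 2, and the main counts, the list medians and the single miRNAs whose printed difference moved most are given with and without it. Intervals and floors cover counting error only.

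**Figure D1:**
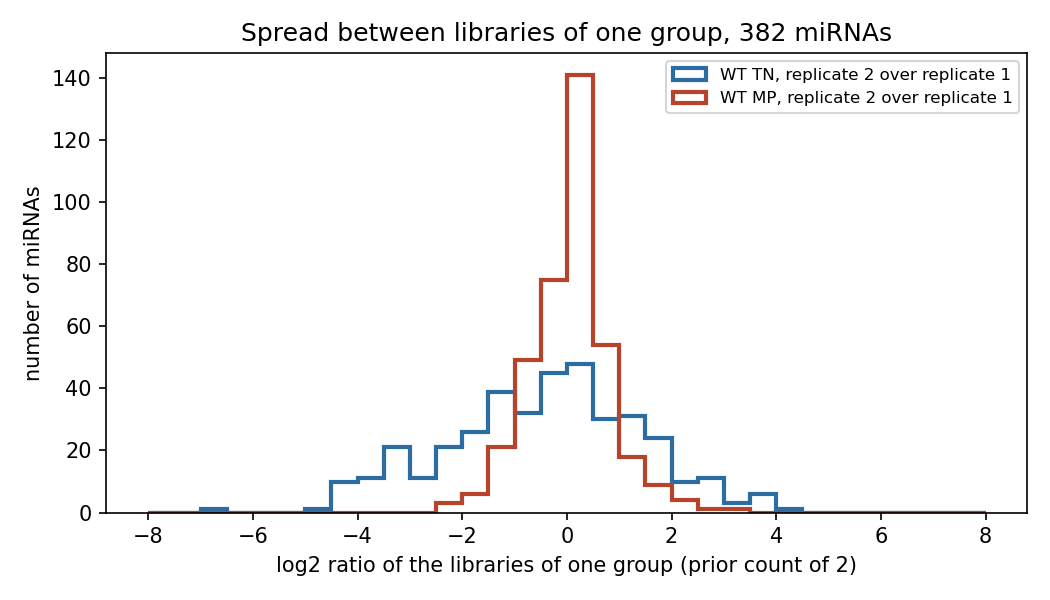
Distribution over 382 miRNAs of the log2 ratio of replicate 2 to replicate 1 within WT TN (blue) and within WT MP (red), from log2 CPM with a prior count of 2. The TN distribution is the wider one, with an SD of 1.86 against 0.76 in MP.

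The arms of single hairpins showed the same contrast. Among 44 hairpins with at least 10 counts of each arm in each of the 4 libraries, the ratio of the 5p to the 3p arm was over 2-fold apart between the TN libraries in 33 and between the MP libraries in 7. The 5p to 3p ratio of miR-342, a miRNA of resting lymphocytes, was 0.357 in TN replicate 1 and 5.05 in the library labelled WT TN replicate 2, against 0.598 and 0.336 in MP. For miR-30e it was 1.53 and 0.0886 in TN and 0.285 and 0.300 in MP, with the MP libraries between the TN libraries. Across the 308 miRNAs with a sequence, the log2 ratio of the TN libraries had a Spearman rho of 0.351 with GC content, and that of the MP libraries 0.0929. The median log2 ratio of the TN libraries was -1.12 for 52 miRNAs under 40% GC, -0.38 for 134 at 40% to 50%, and 0.58 for 122 over 50%. These are descriptions over miRNAs of the same libraries, and the part of GC content in the results was not tested.

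In WT cells, both MP libraries lay above both TN libraries for the activation miRNAs miR-146a-5p, miR-21a-5p and miR-155-5p. They lay below both for miR-211-5p, for miR-181a-5p and, miR-542-3p excepted, for an X-linked cluster around miR-503. The ratios of the group means were 7.37 for miR-146a-5p and 4.56 for miR-21a-5p (MP over TN) and 4.40 for miR-181a-5p (TN over MP). None passed the main test across all miRNAs. MP was compared with TN in one fit of all 4 groups by the quasi-likelihood test of edgeR, adjusted by Benjamini-Hochberg over the 382 miRNAs. The test called 0 of 382 (0%) at an adjusted p under 0.05, with a smallest edgeR adjusted p of 0.062. At an unadjusted p under 0.05 it held 15 miRNAs with MP above TN (3.93%) and 16 with MP below TN (4.19%), where chance gives 19.1 in both directions together. DESeq2 called 12 of the same 382, 8 with MP above TN and 4 below. Among these were miR-146a-5p, miR-21a-5p, miR-155-5p, miR-211-5p and miR-181a-5p, but no member of the X-linked cluster. Whether these miRNAs pass a threshold thus depends on the method. Both MP libraries lay above both TN libraries for 100 miRNAs (26.2%) and below both for 51 (13.4%), and 30 of the 31 with an unadjusted p under 0.05 were among them. The median log2 difference of all 382 was 0.05. Without the library labelled WT TN replicate 2 edgeR called 0 (61 at an unadjusted p under 0.05), and without TN replicate 1 it called 6, 2 above and 4 below; without both TN libraries of replicate 2 it called 14, 4 above and 10 below.

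**Figure D2:**
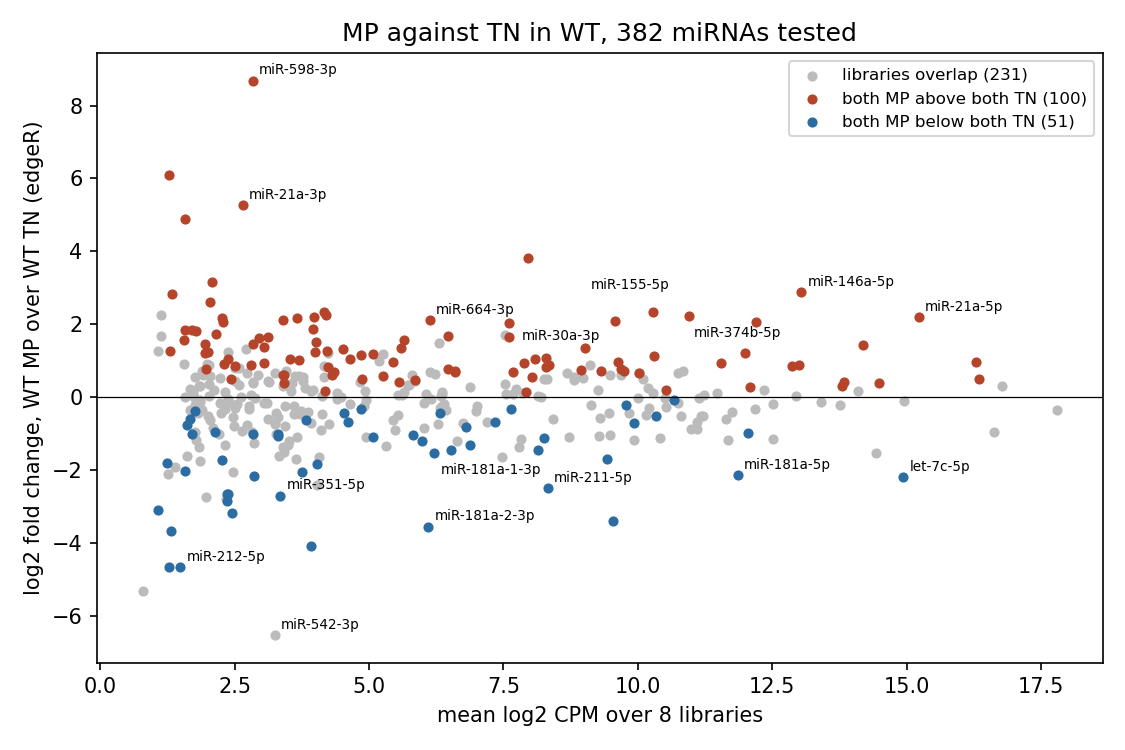
Each point is 1 of 382 miRNAs, with its mean log2 CPM over 8 libraries on the x axis and its edgeR log2 fold change of WT MP over WT TN on the y axis. Red points (100) have both MP libraries above both TN libraries, blue points (51) below both, and gray points overlap; large changes at the left rest on few counts.

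miR-146a-5p gave the smallest p; it damps NF-kB signalling by targeting Traf6 and Irak1. It was at 1793 and 2127 CPM in TN replicates 1 and 2 and 11761 and 17141 CPM in MP replicates 1 and 2. Both MP libraries lay well above both TN libraries. The log2 difference was 2.88 ± 0.50 (SE; unadjusted p = 0.000423, edgeR adjusted p = 0.062), or 2.91 without the library labelled WT TN replicate 2. Its hairpin, Mir146, lies on chromosome 11 at 43374397 to 43374461 (GRCm38), inside no other gene of GENCODE vM21. miR-146b-5p, which has the same seed from another locus, was at 201 and 216 CPM in TN and 219 and 236 CPM in MP, a log2 difference of 0.13 ± 0.46; the gap between the lower MP and the higher TN library was smaller than that between the TN libraries, and the sign turned with RLE factors (-0.07).

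miR-21a-5p, which targets inhibitors of growth and survival signalling, was at 18148 and 9531 CPM in TN and 70436 and 55817 CPM in MP. Both MP libraries were above both TN libraries, with a log2 difference of 2.19 ± 0.48 (edgeR adjusted p = 0.174). The rarer arm of the same hairpin, miR-21a-3p, had 1 and 0 counts in TN and 20 and 39 in MP. Its MP to TN ratio was 44.1 (exact 95% interval 7.62 to 1772, which covers counting error only). Mir21a lies on chromosome 11 at 86584067 to 86584158, and overlaps an exon of Vmp1 on the same strand.

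miR-155-5p, which CD8+ T cells need for effector responses, was at 524 and 397 CPM in TN and 2023 and 2589 CPM in MP. Its libraries did not overlap, and the log2 difference was 2.32 ± 0.55 (edgeR adjusted p = 0.180). Mir155 lies on chromosome 16 at 84714140 to 84714204, in an exon of the noncoding gene Mir155hg. miR-221-3p, which with miR-222-3p restrains the cell cycle inhibitor p27, was at 157 and 64.8 CPM in TN and 325 and 369.9 CPM in MP. Its partner miR-222-3p, of the same seed and locus, was at 192 and 298 CPM in TN and 468 and 405 CPM in MP. Their log2 differences were 1.64 ± 0.59 and 0.84 ± 0.71, both with MP above TN in all 4 library pairs; that of miR-221-3p was 1.05 without the library labelled WT TN replicate 2 and 2.45 without TN replicate 1.

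The list of T cell activation miRNAs had 7 tested members of 9, and 6 of the 7 had both MP libraries above both TN libraries, as had 26.2% of all 382. The list's median log2 difference was 1.64, against 0.05 over all tested, and 0 members passed the adjusted threshold; 4 had an unadjusted p under 0.05. Its sum took 2.60% and 1.16% of counts in TN and 9.57% and 7.16% in MP, most of it miR-21a-5p. The exception was miR-132-3p, which is induced with miR-212 by CREB, at 9.91 and 13.0 CPM in TN and 2.16 and 8.72 CPM in MP. From the neighbouring hairpin, miR-212-5p had 14 and 9 counts in TN and 0 and 1 in MP, a TN to MP ratio of 30.8 (exact 95% interval 4.99 to 1267, counting alone). The list's median was 1.10 without the library labelled WT TN replicate 2 and 2.45 without TN replicate 1, with 6 and 6 of 7 higher.

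Several miRNAs outside the lists stood beside these. miR-374b-5p, from an intron of the noncoding gene Ftx on the X chromosome (103573060 to 103573154), was at 885 and 681 CPM in TN and 3126 and 4120.5 CPM in MP, a log2 difference of 2.21 ± 0.56. miR-664-3p was at 40.4 and 15.2 CPM in TN and 120.3 and 122 CPM in MP, 2.11 ± 0.64 on the log2 scale (from 1.49 to 3.02 when either TN library was left out). For both, the lower MP library was above the higher TN library. miR-664-3p lies in an intron of Rab3gap2, and its partner arm miR-664-5p overlapped, at 9.64 and 70.4 CPM in TN and 19.5 and 31.6 CPM in MP. miR-151-5p was at 63.5 and 18.6 CPM in TN and 108 and 1063 CPM in MP, so its log2 difference of 3.82 ± 1.48 (1.32 without MP replicate 2) rests mostly on that library. miR-1949 was rarer still, at 6.69 and 4.51 CPM in TN and 24.1 and 28.4 CPM in MP, and so was miR-5132-5p, at 2.68 and 3.94 CPM in TN and 8.92 and 19.4 CPM in MP; neither overlapped.

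miR-598-3p was not detected in either TN library. It had 0 counts in both TN libraries and 48 and 67 in MP. Against a floor of 3 counts over the TN group it was at least 28.7-fold higher in MP (edgeR adjusted p = 0.062). miR-34a-5p, which p53 induces, likewise had 0 counts in TN, with 14 and 5 in MP, at least 4.74-fold higher against the same floor. Of these, miR-34a-5p lies near the depth limit of the libraries.

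In the miR-30 family, which is broadly expressed, 2 of the 3p arms stood out. miR-30a-3p was at 217 and 368 CPM in TN and 1190.0 and 1279 CPM in MP, a log2 difference of 2.08 ± 0.52 (edgeR adjusted p = 0.180). miR-30c-2-3p, from the next hairpin on chromosome 1 (23291701 to 23291784, against 23272269 to 23272339 for Mir30a), was at 23.6 and 49.6 CPM in TN and 106 and 128 CPM in MP, 1.69 ± 0.54. The groups did not overlap for either. The 3p arms miR-30e-3p, miR-30b-3p and miR-30c-1-3p overlapped, with log2 differences of 0.11, 0.22 and 0.07. The remaining 3p arm, miR-30d-3p, had a log2 difference of 0.68. The 5p arm miR-30a-5p was at 1778 and 283 CPM in TN and 2031 and 2454 CPM in MP, so only the library labelled WT TN replicate 2 stood far from the other 3. Of 11 tested members of the family 10 were higher, with a median of 0.55, and 9 were higher without the library labelled WT TN replicate 2. Both MP libraries lay above both TN libraries for 6 of the 11, where 26.2% of all 382 did so.

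The miR-183 cluster, whose member miR-182 is induced by IL-2 in T cells, had 3 of 3 tested members with both MP libraries above both TN libraries, where 26.2% of all miRNAs did so. miR-182-5p was at 333 and 255 CPM in TN and 621 and 864 CPM in MP. miR-183-5p was at 144 and 167 CPM in TN and 243 and 400.5 CPM in MP. miR-96-5p was the rarest, at 5.36 and 5.63 CPM in TN and 15.7 and 13.1 CPM in MP. The log2 differences ran from 1.05 to 1.38, and the hairpins lie on chromosome 6 between 30165918 and 30169737. The list's median was 1.34, and 1.06 leaving out the library labelled WT TN replicate 2.

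**Figure D3:**
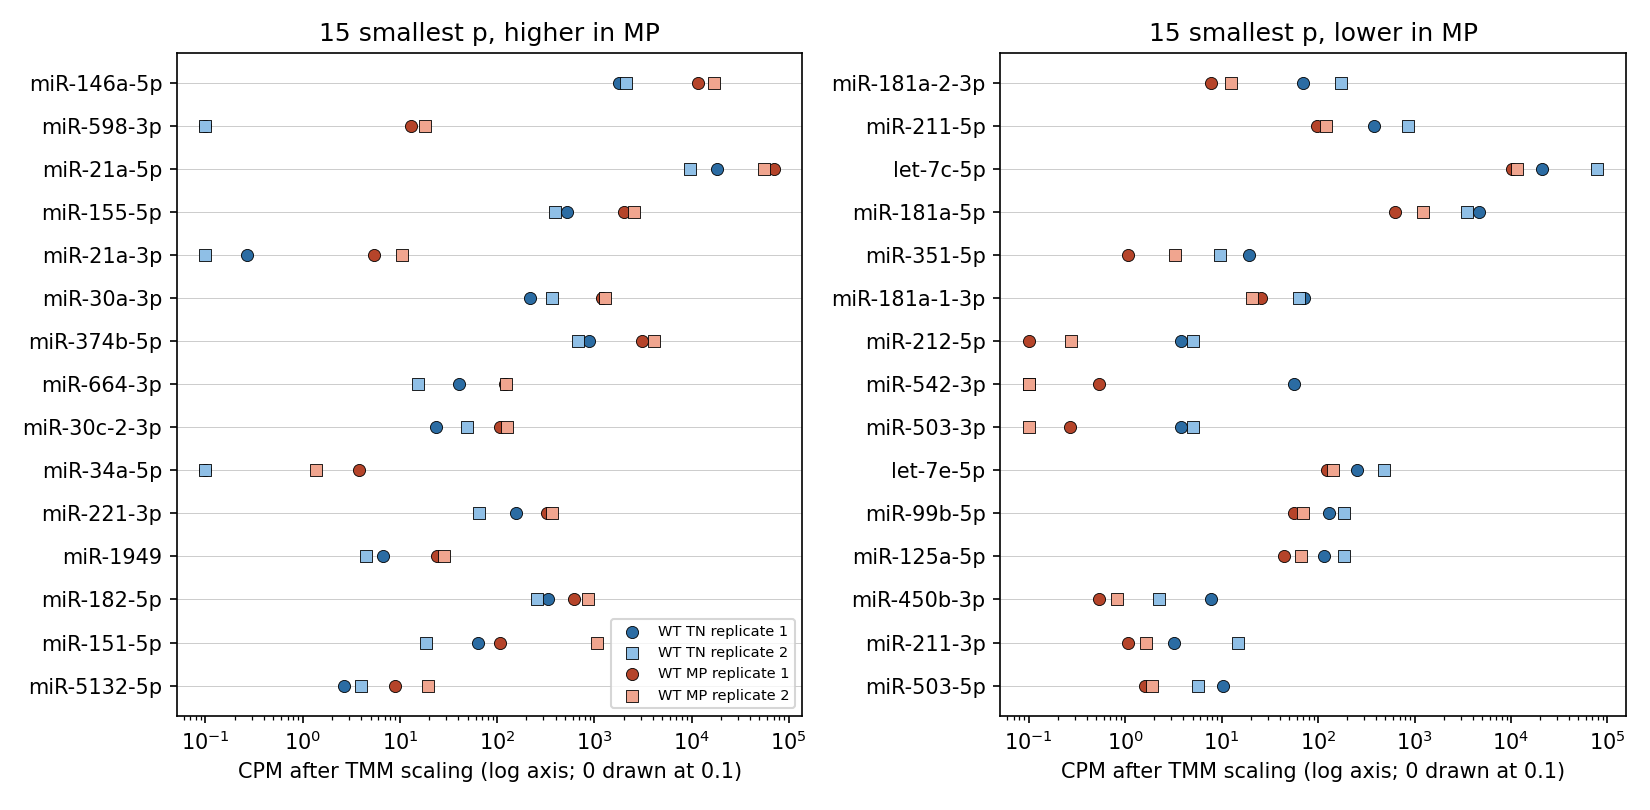
CPM after TMM scaling (log axis, 0 drawn at 0.1) of the 15 miRNAs with the smallest p and MP above TN (left) and the 15 with MP below TN (right), 1 point per WT library. TN libraries are blue and MP libraries red; for 29 of the 30 the colours do not overlap, and in miR-542-3p the library labelled WT TN replicate 2 lies at 0 with MP replicate 2.

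On the other side, the miR-181a hairpins gave the smallest p. miR-181a-5p, which tunes the sensitivity of the T cell receptor, was at 4679.8 and 3517 CPM in TN replicates 1 and 2 and 634 and 1229 CPM in MP replicates 1 and 2. Both MP libraries were below both TN libraries, and the log2 difference was -2.14 ± 0.70 (edgeR adjusted p = 0.435). The 3p arms, which tell the loci of miR-181a apart, did the same: miR-181a-2-3p, from chromosome 2 (38852735 to 38852810, opposite an intron of Nr6a1), was at 69.9 and 171 CPM in TN and 7.84 and 12.5 CPM in MP. Its log2 difference was -3.56 ± 0.63 (edgeR adjusted p = 0.062), or -2.87 without the library labelled WT TN replicate 2. miR-181a-1-3p, from chromosome 1 (137966455 to 137966541, in an intron of Gm4258), was at 71.5 and 63.7 CPM in TN and 25.4 and 20.7 CPM in MP, a log2 difference of -1.55 ± 0.52.

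miR-181b-5p, encoded beside miR-181a at both loci, was at 844 and 544 CPM in TN and 146 and 283 CPM in MP, -1.70 ± 0.71 on the log2 scale. The guide strands of the chromosome 8 locus overlapped between the subsets. miR-181c-5p was at 58.9 and 11.8 CPM in TN and 35.9 and 198 CPM in MP. miR-181d-5p was at 698 and 341 CPM in TN and 424 and 756 CPM in MP. The rare passenger strand of the same locus, miR-181d-3p, had 7 and 3 counts in TN and 4 and 6 in MP; its CPM did not overlap, with both MP libraries narrowly below TN. All 4 guide strands carry the seed ACAUUCA, and 2 of them were higher and 2 lower (3 lower with RLE factors, where miR-181d-5p was at -0.0032 on the log2 scale). Of the family's 9 tested members, 6 were lower, with a median of -1.55; the median was -1.71 without the library labelled WT TN replicate 2 and -0.28 without TN replicate 1. The family sum took 0.797% and 0.427% of counts in TN and 0.145% and 0.235% in MP.

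miR-211-5p, the other large difference of this kind, comes from an intron of Trpm1 on chromosome 7 (64205806 to 64205911). It was at 382 and 859.8 CPM in TN and 98.4 and 122 CPM in MP, a log2 difference of -2.49 ± 0.61 (edgeR adjusted p = 0.180), or -1.89 without the library labelled WT TN replicate 2. The partner arm miR-211-3p was at 3.21 and 14.6 CPM in TN and 1.08 and 1.64 CPM in MP, again without overlap. miR-204-5p, the near copy shown above, comes from an intron of Trpm3 on chromosome 19 and had 20 and 4 counts in TN and 0 and 2 in MP. Since the 2 sequences differ at 1 position, reads of one can be counted for the other.

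The 308 tested miRNAs with a RefSeq sequence were also sorted by genomic position, joining mature miRNAs on the same strand within 10 kb. Tested members of a cluster are only those with such a sequence, and tested miRNAs without one are missing from the clusters. Of 26 clusters with 3 or more tested members, 5 had all members lower in MP and 8 all members higher. These clusters are not all separate, since a miRNA made at several loci enters each with the same values. Among the lower, miR-181a-5p and miR-181b-5p stand in both the Mir181a-1 and the Mir181a-2 cluster. Among the higher, miR-29b-3p stands in the Mir29a and Mir29c clusters, and miR-16-5p in the Mir15a and Mir15b clusters. The cluster with the most members all on one side was that of Mir322, Mir503, Mir351, Mir542, Mir450-1 and Mir450b on the X chromosome, between 53048008 and 53054289 on the minus strand, in which all 8 tested members were lower and 7 had both MP libraries below both TN libraries, where 13.4% of all miRNAs did. It was singled out after its values were seen. Its members, of which miR-322 and miR-503 are known to act on cell cycle genes, are rare in these cells: their summed level was 161 and 49.0 CPM in TN and 11.4 and 11.2 CPM in MP.

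Within that cluster miR-322-3p was at 21.7 and 16.9 CPM in TN and 4.86 and 4.36 CPM in MP. miR-351-5p, the seed mate of miR-125 shown above, was at 19.0 and 9.58 CPM in TN and 1.08 and 3.27 CPM in MP. miR-450a-5p was at 39.4 and 7.32 CPM in TN and 1.89 and 0.818 CPM in MP. The log2 differences of these 3 were -2.06 ± 1.23, -2.71 ± 0.90 and -4.08 ± 1.83, and none passed the adjusted threshold; that of miR-450a-5p was -4.90 without the library labelled WT TN replicate 2 and -2.37 without TN replicate 1. miR-503-5p was at 10.4 and 5.63 CPM in TN and 1.62 and 1.91 CPM in MP. Its other arm miR-503-3p was at 3.75 and 5.07 CPM in TN and 0.270 and 0 CPM in MP. miR-450b-3p was at 7.76 and 2.25 CPM in TN and 0.541 and 0.818 CPM in MP. In each of these members both TN libraries lay above both MP libraries. miR-542-3p was uneven, with 211 counts in TN replicate 1 and 0 in the library labelled WT TN replicate 2, against 2 and 0 in MP, so its log2 difference of -6.53 rests on TN replicate 1 and is 3.01 without it. In mCre cells, whose libraries are separate, the cluster's sum was 125 and 86.7 CPM in TN and 6.36 and 23.8 CPM in MP, and 8 of 8 members were lower there, as were 209 of all 382.

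A second cluster with every tested member lower, Mir99b, Mirlet7e and Mir125a on chromosome 17 (mature miRNAs from 17830194 to 17830840, within Spaca6), had 3 of 3 members with both MP libraries below both TN libraries, against 13.4% of all 382. miR-99b-5p was at 129 and 186 CPM in TN and 56.8 and 70.1 CPM in MP. let-7e-5p was at 254 and 483 CPM in TN and 125 and 144 CPM in MP. miR-125a-5p was at 115 and 185 CPM in TN and 44.1 and 66.0 CPM in MP. Their log2 differences were -1.31 ± 0.50, -1.45 ± 0.53 and -1.45 ± 0.55. Of the miR-99/100 and miR-125 families, whose members are known in blood stem cells and in T cells, 4 of 5 tested were lower, with a median of -1.31. The exception, miR-100-5p, had 4 and 0 counts in TN and 16 and 14 in MP. miR-125b-5p overlapped between the subsets, at 9.91 and 6.76 CPM in TN and 4.59 and 9.54 CPM in MP. In mCre cells the sum of the Mir99b cluster was 564 and 503 CPM in TN and 520 and 476 CPM in MP. Of its 3 members, 2 were lower there and 1 was higher.

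**Figure D4:**
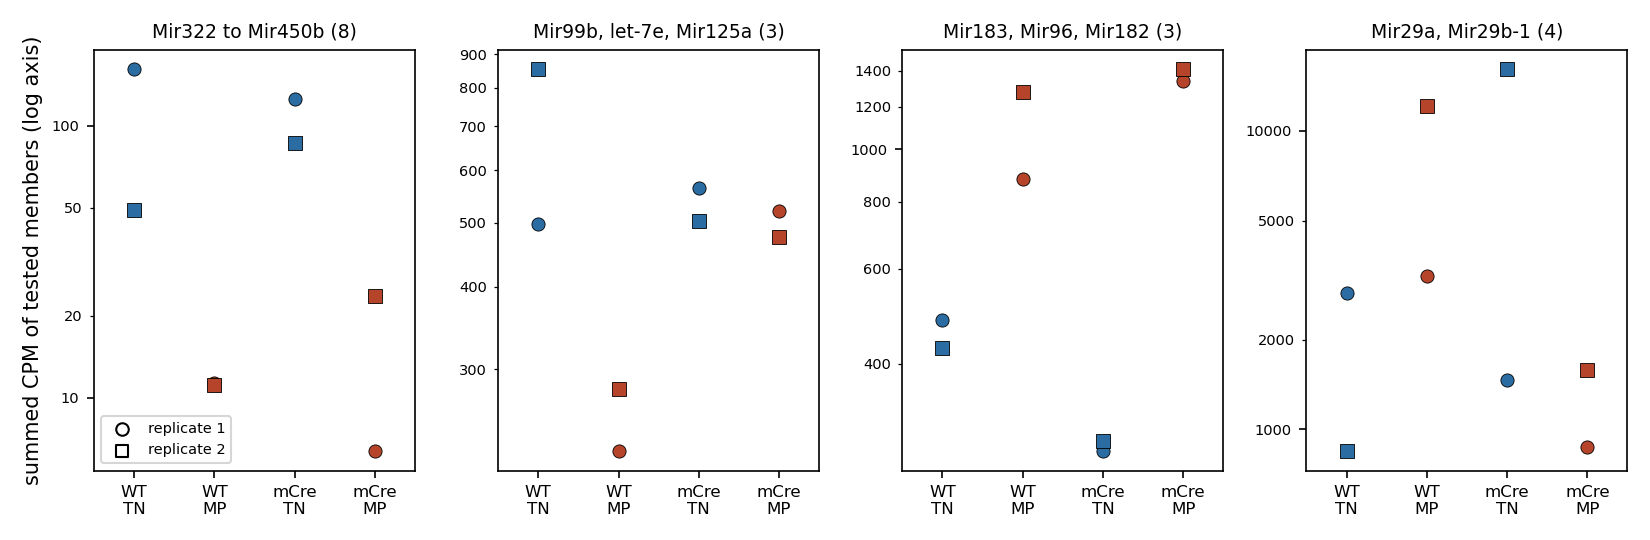
Summed CPM after TMM scaling (log axes) of the tested members of 4 genomic clusters in each of the 8 libraries, blue for TN and red for MP, circles for replicate 1 and squares for replicate 2. The Mir322 to Mir450b sum is 11.2 and 11.4 CPM in WT MP against 49.0 and 161 in WT TN, and the Mir29a sum of WT is lowest in the library labelled WT TN replicate 2.

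The let-7 family, linked to the quiescence of T cells, filled much of every library, and 9 of its 11 tested guide strands overlapped between the subsets. Its guide strands took 50.7% and 68.8% of counts in TN and 42.7% and 45.8% in MP, with the library labelled WT TN replicate 2 far above the other 3. let-7a-5p was at 53064 and 172721 CPM in TN and 49911 and 66545 CPM in MP. let-7b-5p was at 8764 and 50858 CPM in TN and 9233 and 11488 CPM in MP. In both, the library labelled WT TN replicate 2 was the highest of the 4 and TN replicate 1 lay near or among the MP libraries. The most abundant member, let-7f-5p, was at 155697 and 313172 CPM in TN and 153809.5 and 209455 CPM in MP. let-7c-5p, like let-7e-5p above, did not overlap, at 21042 and 78548 CPM in TN and 10241 and 11556 CPM in MP. Its log2 difference of -2.19 ± 0.62 (edgeR adjusted p = 0.303) was -1.04 without the library labelled WT TN replicate 2. Of 11 tested guide strands 8 were lower, with a median of -0.37; leaving that library out, 4 were lower and the median was 0.04. The passenger strands had 6 of 8 higher and a median of 0.63 (0.20 without that library). Both figures count let-7c-2-3p and let-7a-1-3p, which have the same sequence, as separate members.

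miRNAs of resting lymphocytes were not uniformly lower in MP. Of 9 tested, 5 had both MP libraries above both TN libraries (26.2% of all 382 had) and 0 below both (13.4% of all). miR-150-5p, given above, had a log2 difference of 0.97 ± 0.42 (unadjusted p = 0.051), and miR-139-5p was at 2058 and 3769 CPM in TN and 7521 and 5926 CPM in MP. miR-26a-5p was at 28445 and 15629.7 CPM in TN and 28517 and 29502 CPM in MP, so its separation hangs on narrow gaps to TN replicate 1. The list's median was 0.40, or -0.06 without the library labelled WT TN replicate 2, with 4 of 9 higher. Of the 10 most abundant miRNAs of these libraries, miR-92a-3p was at 55293 and 73876 CPM in TN and 81607 and 101766 CPM in MP, without overlap. It is encoded in the miR-17-92 cluster and again in the Mir363 cluster on the X chromosome, and its counts do not tell the loci apart. Both let-7i-5p, at 31127 and 32745 CPM in TN and 25582 and 33506 CPM in MP, and let-7g-5p, at 129882 and 81363 CPM in TN and 119126 and 139096 CPM in MP, overlapped.

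The miR-29 family, which restrains T-bet, Eomes and interferon-gamma in T cells, was higher in MP in 6 of 6 tested forms, with no overlap in any, where 26.2% of all 382 lay wholly above TN; none passed the threshold. miR-29a-3p was at 2751 and 802 CPM in TN and 3105 and 11659 CPM in MP. miR-29b-3p was at 104 and 38.3 CPM in TN and 142 and 440.3 CPM in MP. miR-29c-3p was at 12.0 and 0 CPM in TN and 20.3 and 43.6 CPM in MP. TN replicate 1 and MP replicate 1 were thus close, while the library labelled WT TN replicate 2 was the lowest and MP replicate 2 the highest. The log2 difference of miR-29a-3p was 2.05 ± 1.15 (edgeR adjusted p = 0.662); it was 1.30 without the library labelled WT TN replicate 2 and 0.75 without MP replicate 2. The median of the 6 forms was 2.04, 1.30 without the library labelled WT TN replicate 2, and 4.95 without TN replicate 1. miR-29a-5p, miR-29b-1-5p and miR-29c-5p were each at 6.76 CPM or less in all 4 libraries. In mCre cells 4 of the 6 forms were lower in MP and 2 were higher, with a median of -2.43. The library labelled mCre TN replicate 2, which held the largest share of miR-29, is on the TN side of that median.

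In the remaining families the count of higher members depended on which TN library was left out. The miR-17-92 cluster, which drives lymphocyte proliferation, had 6 of 9 tested members higher (median 0.40), but 3 of 9 without the library labelled WT TN replicate 2 (median -0.28) and 9 of 9 without TN replicate 1 (median 1.90). miR-19b-3p, encoded in that cluster and in the Mir363 cluster, was at 856 and 56.3 CPM in TN and 227 and 186 CPM in MP. Both MP libraries lay between the TN libraries. The miR-15/16 family, which limits the cell cycle, had 6 of 7 higher (median 0.49), but 3 of 7 (median -0.24) without the library labelled WT TN replicate 2. Its member miR-16-5p was at 9501 and 1395 CPM in TN and 5821 and 6651 CPM in MP. The miR-17-92 paralogs and the miR-23/27/24 clusters had medians of 0.02 and 0.04, with 6 of 12 and 6 of 10 members higher, and both medians were below 0 with RLE factors or total count scaling. The miR-200 family, typical of epithelium, had 7 of 7 higher (median 0.66) and 5 of 7 without the library labelled WT TN replicate 2; its most abundant member, miR-200b-3p, overlapped at 1385 and 586 CPM in TN and 1781 and 1325 CPM in MP.

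Other members of these families show how far single miRNAs spread. Among the passenger strands, let-7b-3p was at 55.4 and 118 CPM in TN and 33.5 and 41.2 CPM in MP, below TN in both MP libraries. Above TN in both MP libraries were miR-98-3p, with 27 and 4 counts in TN and 58 and 55 in MP, and let-7f-1-3p, at 29.7 and 31.0 CPM in TN and 35.4 and 54.2 CPM in MP. The same held for let-7c-2-3p, at 112 and 54.7 CPM in TN and 158 and 114 CPM in MP. let-7a-1-3p has nearly the same values and the same mature sequence over all 22 bases. Reads cannot tell the 2 apart, so they are not separate observations. Of the miR-17-92 paralogs, miR-363-3p was at 216 and 101 CPM in TN and 275 and 336 CPM in MP, and miR-25-3p, a seed mate of miR-92a-3p, at 12174 and 12368 CPM in TN and 14393 and 18128 CPM in MP, neither overlapping. The 5 tested miRNAs with that seed, AUUGCAC, had a median of 0.51 with TMM scaling.

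The miR-23/27/24 clusters, which curb effector T cell cytokines, held differences in both directions. miR-24-2-5p was at 252 and 219.7 CPM in TN and 153 and 139.6 CPM in MP, with MP below TN. miR-23b-3p was at 1049 and 389.9 CPM in TN and 1093 and 1262 CPM in MP, with MP above TN. The abundant miR-23a-3p overlapped, at 2122 and 540.3 CPM in TN and 2039 and 2195 CPM in MP. In the miR-15/16 family, miR-15b-3p did not overlap, at 326 and 146 CPM in TN and 553 and 438 CPM in MP, whereas miR-15a-5p did, at 53.6 and 1.13 CPM in TN and 21.6 and 132 CPM in MP. Among all 88 hairpins with both arms tested, the arms had the same direction in 58.

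The Sfmbt2 cluster is a rodent repeat of near-identical miRNA copies whose members share reads. Its list was taken by name, as every miR-297, miR-466, miR-467 and miR-669, so members encoded elsewhere may be included. This list had 36 of 38 tested members lower in MP (median -0.87), 10 of them with both MP libraries below both TN libraries. Over all 382 miRNAs, 180 were lower and 13.4% lay wholly below TN. Its sum took 0.404% and 0.730% of counts in TN and 0.309% and 0.234% in MP. Without TN replicate 1 only 15 of 38 were lower and the median was 0.80, so the direction of the median and of the count rests on that library. The summed share does not, since it was highest in the library labelled WT TN replicate 2. miR-669a-5p was at 66.4 and 77.2 CPM in TN and 38.4 and 31.6 CPM in MP, and its partner arm miR-669a-3p at 551 and 58.6 CPM in TN and 97.0 and 99.2 CPM in MP.

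**Figure D5:**
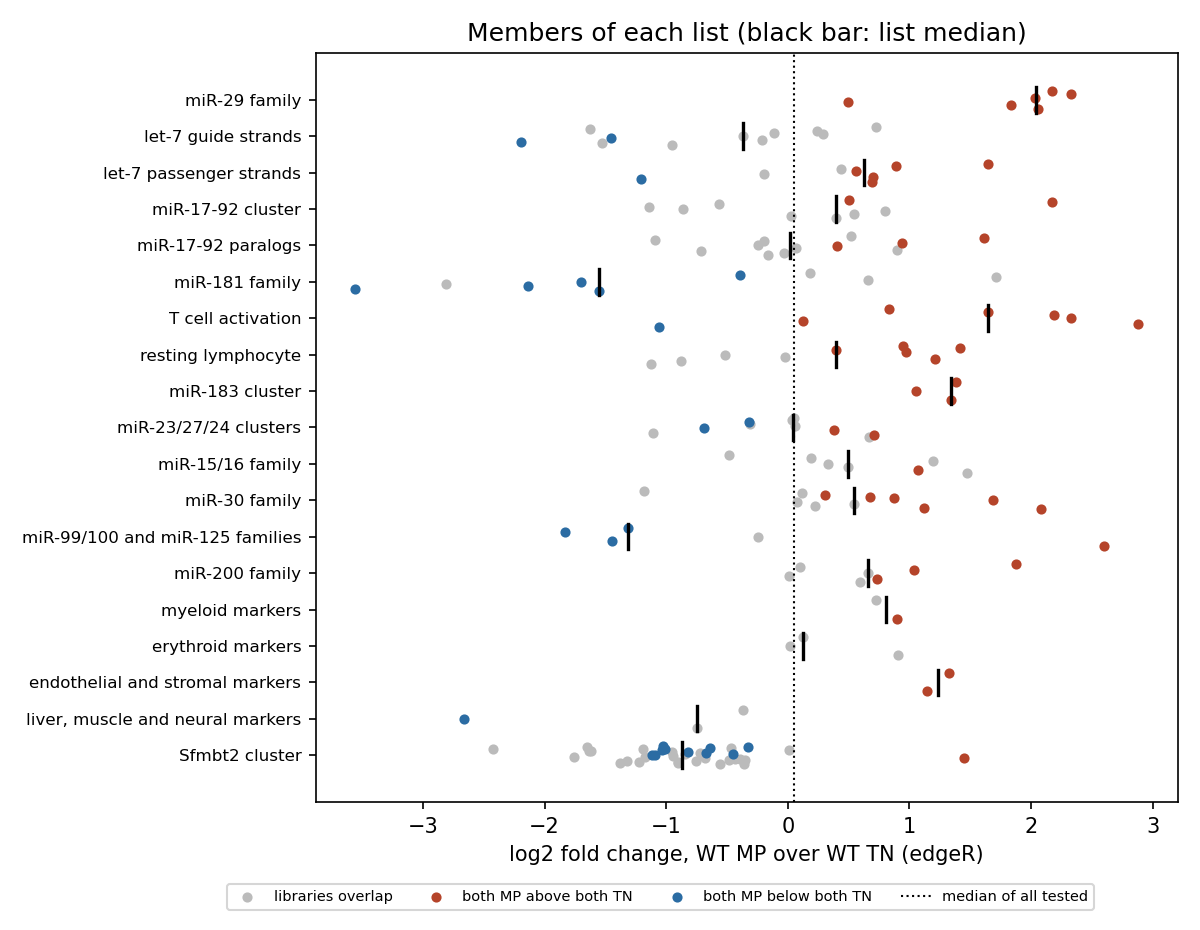
Each point is a tested member of a list, placed by its edgeR log2 fold change of WT MP over WT TN; black bars are list medians and the dotted line is the median of all 382 miRNAs (0.05). Red points have both MP libraries above both TN libraries and blue points below both; the activation and miR-29 lists lie to the right, at medians of 1.64 and 2.04.

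The listed markers of other cell types were scarce in all 4 libraries. In CPM without TMM scaling, the myeloid list (miR-223, 2 of 2 members tested) summed to 6.94 and 7.23 CPM in TN and 13.7 and 10.7 CPM in MP. The erythroid list (3 of 5 tested; its median turned below 0 with RLE factors) summed to 96.9 and 184 CPM in TN and 157 and 149 CPM in MP, with miR-451a, its defining member, at 16 and 3 counts in TN and 33 and 10 in MP. The endothelial and stromal list (2 of 7 tested) summed to 59.2 and 22.2 CPM in TN and 113 and 65.3 CPM in MP, and both tested members lay above TN in both MP libraries after scaling, miR-126a-3p with 77 and 28 counts in TN and 208 and 90 in MP. The list of liver, muscle and neural markers (3 of 6 tested) summed to 23.8 and 36.7 CPM in TN and 19.7 and 14.0 CPM in MP. The miR-200 family, typical of epithelium, is in none of these lists. On the same unscaled measure it summed to 2560 and 1177 CPM in TN and 3114 and 2236 CPM in MP. The part of such cells in the differences above was not tested. Fewer cells with a miRNA and less of it per cell cannot be told apart in these sorted pools.

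Whether the subset difference was the same in mCre cells was tested as a difference of differences in the same fit, which shares no library between the genotypes. edgeR's quasi-likelihood test called 0 of 382 (0%), with a smallest edgeR adjusted p of 0.300 and 54 below 0.05 before adjustment; DESeq2 called 16. The 5 smallest p were those of miR-664-3p, let-7i-3p, miR-296-5p, miR-21a-3p and let-7c-5p. For miR-664-3p the log2 difference of MP and TN was 2.11 ± 0.64 in WT and -1.71 ± 0.63 in mCre (difference 3.82 ± 0.89, unadjusted p = 0.0028). For let-7c-5p it was -2.19 ± 0.62 and 0.82 ± 0.60. miR-296-5p was at 8.84 and 1.13 CPM in TN and 16.8 and 33.0 CPM in MP in WT and had a log2 difference of -4.15 ± 1.21 in mCre. let-7i-3p was at 5.62 and 2.82 CPM in TN and 8.38 and 7.63 CPM in MP in WT, with -5.63 ± 1.27 in mCre. Both mCre values rest on few MP counts. In mCre MP replicate 1, let-7i-3p had 0 counts. The 5p to 3p ratio of miR-296 was 0.0075 and 0.0357 in mCre MP replicates 1 and 2. No floor or counting interval was computed for mCre.

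A few of the miRNAs described above were set beside their differences in mCre; they were picked after their values were seen and are not the largest. miR-146a-5p was 2.88 ± 0.50 in WT and 2.33 ± 0.49 in mCre, miR-30a-3p 2.08 ± 0.52 and 2.19 ± 0.53, miR-181a-2-3p -3.56 ± 0.63 and -3.23 ± 0.62, and miR-211-5p -2.49 ± 0.61 and -2.20 ± 0.61. The unadjusted p of the difference for these 4 ran from 0.430 to 0.883, and a p of this size does not show that the genotypes were alike. miR-155-5p was 2.32 ± 0.55 in WT and 0.22 ± 0.53 in mCre, a difference of 2.10 ± 0.75 (unadjusted p = 0.023). miR-374b-5p was 2.21 ± 0.56 and -0.06 ± 0.54 (unadjusted p = 0.018), and miR-221-3p 1.64 ± 0.59 and -1.09 ± 0.58 (unadjusted p = 0.011). None of these differences passed the edgeR adjusted threshold. The TN side of both genotypes holds the libraries of replicate 2 that stood apart in miR-29; without both of them edgeR called 0 differences of 433 (32 at an unadjusted p under 0.05).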

How the data were processed

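Small RNA was sequenced from sorted splenic CD8+ T cells in 8 libraries of 2 genotypes and 2 subsets, with the NEBNext small RNA kit and no stated molecular identifiers, per the labels' protocols. The authors deposited 1 table of expected counts (2128 rows, 1978 mature names, 85 names in several rows), in which reads that match several rows look divided between them. The build was mm10, per the submitters' processing notes; the aligner, the counter and the annotation of miRNAs: not given in the sources used here. Rows of a mature name were summed and rounded. filterByExpr of edgeR 4.0.16 (minimum count 10, minimum total count 15) left 382 miRNAs, holding over 99.97% of the counts of each library. Libraries were scaled by TMM. The test was edgeR's quasi-likelihood F test with robust estimation in 1 fit of the 4 groups (4 residual degrees of freedom), with Benjamini-Hochberg adjustment; SE is the size of the log2 difference over the root of its F statistic. Lists are described by counts, medians and summed shares, with no set test and no p. Totals ran from 1936597 to 5230976 counts.

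Alternatives were RLE factors, total count scaling, no filter, DESeq2 1.42.0 (on the filtered counts), the replicate number as a block, the WT libraries alone, each library left out, and both TN libraries of replicate 2 left out. The procedure was checked on simulated counts, and no result of that check is used here. The check included planted changes at the spread of these libraries, but the share of them that the test found is not given here. How large a difference the test can find at that spread is therefore not stated. Members, lists and alternatives were chosen with earlier results of these data known. miRNAs were named by rule: the 15 smallest p per direction, the 10 most abundant, every tested miR-29 form, up to 4 per list by smallest p, and the 5 smallest p of the difference between genotypes; partner arms, seed mates and cluster neighbours were added after their values were seen. Not every miRNA that the rule allows is named.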

Additional observations from a re-analysis of the deposited data

How the results depend on the processing

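The count of miRNAs past the edgeR threshold for MP against TN in WT was 0 with TMM, RLE factors, total count scaling and the WT libraries alone (334 tested), with 26 to 35 at an unadjusted p under 0.05. It was 6 without the filter on low counts, 12 with DESeq2, 14 without both TN libraries of replicate 2, and 0 to 6 with 1 library left out. For the difference between genotypes it was 10, 16, 0 and 0 to 68 (the highest, for both counts, without WT TN replicate 1). With the replicate block both counts were 0; replicate numbers share no origin in the labels, and the replicate differences of WT TN and WT MP had a Pearson r of 0.0206 across miRNAs. RLE factors shifted the median of all 382 by -0.17; the medians of the miR-17-92 paralogs and the miR-23/27/24 clusters turned to -0.14 and -0.13 with RLE factors and to -0.10 and -0.08 with total count scaling, and that of the erythroid list to -0.11 with RLE factors. Of 1313 values of single miRNAs under alternatives, 74 changed sign. With 1 library, or both TN libraries of replicate 2, left out, those that changed sign ran from -1.54 to 0.037 for let-7a-5p, -2.27 to 0.15 for let-7b-5p, -0.76 to 0.12 for let-7f-5p, -0.13 to 0.69 for let-7g-5p, -0.41 to 0.10 for let-7i-5p, -0.94 to 0.22 for miR-125b-5p, -0.69 to 0.95 for miR-142a-3p, -0.070 to 0.21 for miR-146b-5p, -0.40 to 6.06 for miR-15a-5p, -0.73 to 2.19 for miR-16-5p, -0.91 to 2.24 for miR-17-5p, -0.042 to 3.31 for miR-181c-5p, -0.37 to 0.81 for miR-181d-5p, -2.16 to 1.90 for miR-19b-3p, -0.12 to 2.00 for miR-23a-3p, -1.81 to 0.25 for miR-23b-5p, -0.088 to 0.92 for miR-26a-5p, -0.14 to 0.66 for miR-30b-3p, -0.28 to 0.36 for miR-30c-1-3p, -0.090 to 0.22 for miR-30e-3p, -0.13 to 1.80 for miR-451a, -9.52 to 3.01 for miR-542-3p, -1.44 to 1.30 for miR-664-5p, -2.61 to 0.77 for miR-669a-3p. With replicate block the log2 difference was 0.046 for miR-142a-3p. With RLE factors the log2 difference was -0.070 for miR-146b-5p, -0.10 for miR-17-5p, -0.0032 for miR-181d-5p, -0.15 for miR-30c-1-3p, -0.090 for miR-30e-3p. With WT libraries alone the log2 difference was -0.072 for miR-146b-5p, -0.086 for miR-17-5p, -0.0019 for miR-181d-5p, -0.0056 for miR-30b-3p, -0.15 for miR-30c-1-3p, -0.093 for miR-30e-3p. With DESeq2 the log2 difference was -0.070 for miR-146b-5p, -0.10 for miR-17-5p, -0.0033 for miR-181d-5p, -0.15 for miR-30c-1-3p, -0.090 for miR-30e-3p. With total count scaling the log2 difference was -0.028 for miR-16-5p, -0.17 for miR-17-5p. The cause was not tested. Depth limits the rare miRNAs: of those tested, 3 were at 0 counts throughout TN and 1 throughout MP.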
